A study of Mus musculus with 16 samples.

Results

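Solute carriers are the largest group of membrane transport proteins, and their gene symbols begin with Slc. The genes described here are 181 protein-coding Slc genes that had at least 50 counts in each of 4 RNA sequencing libraries from mouse pancreatic tumours, 2 with Ly6d overexpression and 2 WT. They were taken from 371 protein-coding Slc genes among 54532 genes in the tables. A further 186 Slc genes were under that floor, and 4 at the floor, Slc4a4, Slc7a11, Slc2a1 and Slc16a3, were set aside by name. The members were thus chosen by their read counts in these 4 libraries, so their levels are a description. The floor had to be met in every library, so an Slc gene that was very low in either group could not be a member. At the edge, Slc25a14, Slc2a6, Slc18a1 and Slc25a27 had 52, 56, 60 and 61 counts in their lowest library and were members, while Slc14a1, Slc46a3, Slc51a and Slc7a9 had 48, 47, 46 and 44 and were not.

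KPC1199 is a mouse pancreatic cancer cell line. The labels describe 16 samples from orthotopic KPC1199 tumours, 8 of tumour tissue and 8 of KPC1199 cells sorted from tumours. The values used here come from 2 libraries in each of 4 groups: KPC1199 cells overexpressing Ly6d, their WT controls, sorted cells with high Ly6d and sorted cells with low Ly6d. Ly6d encodes a cell surface protein anchored by a lipid, and the study's question was its effect on how pancreatic tumours begin and develop. All 4 groups are from the same cell line. The promoter that drives Ly6d, the number of clones, the age and strain of the hosts, the markers of the sort, and whether high and low cells came from WT or overexpressing tumours are not stated in the labels. Names of count columns match sorted WT samples but also occur within tissue WT titles, and the overexpression columns carry a name the labels use for overexpression tumours. Whether these 4 libraries are of sorted cells or of tissue is therefore not settled by the names. Nothing in the labels says that replicates came from separate animals, so p-values measure only the spread between these libraries, which may be technical.

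Ly6d itself was at 3379.6 and 3423 CPM (counts scaled to the library total) in the overexpression libraries, against 1260.0 and 1066 CPM in the WT libraries. In the sorted cells it was at 697 and 504 TPM (transcripts scaled for gene length and library total) with high Ly6d, against 1.56 and 0.352 TPM with low Ly6d, a difference set by the sort. Totals were 18290325 and 18001470 counts for overexpression and 18108850 and 15449241 for WT. Reads recovered from TPM summed to 20509539 and 18362419 for Ly6d-high and 15063975 and 19322028 for Ly6d-low. As a check of the label, 10 epithelial tumour genes were above 0 in every library, summing to 13311 and 13965 CPM with overexpression, 12974 and 12599 CPM in WT, 40915 and 40419 TPM in Ly6d-high and 56572 and 57767 TPM in Ly6d-low. Levels above 0 show only that these 10 genes were detected, and some of them differed between groups. With overexpression, 0 were higher and 1 lower (edgeR). In Ly6d-high cells, 2 of the 10 were higher and 4 lower (limma). For the reads recovered from TPM, edgeR placed 2 above their Ly6d-low level and 5 below it. Markers of other cells also differed. The summed level of 29 acinar genes was 1883 and 2067 CPM with overexpression against 25088 and 25680 CPM in WT, and 17950.4 and 16363 TPM in Ly6d-high against 7027 and 7092 TPM in Ly6d-low. The 13 macrophage genes summed to 332 and 347 CPM with overexpression against 165 and 157 CPM in WT, and to 849 and 897 TPM in Ly6d-high against 276 and 279 TPM in Ly6d-low. With overexpression, 7 of 11 tested neutrophil genes were higher (sums of 198 and 211 CPM, against 76.8 and 76.7 CPM in WT), as were 2 of 5 B and plasma cell genes (88 and 89.3 CPM, against 12 and 11.1 CPM), while 10 of 15 islet genes were lower (626 and 681 CPM, against 1456 and 1297 CPM), as were 5 of 11 endothelial genes (413 and 436 CPM, against 569 and 551 CPM; edgeR). In Ly6d-high cells, 3 of 5 B and plasma cell genes were higher (97.5 and 85 TPM, against 7.01 and 6.07 TPM in Ly6d-low), as were 2 of 4 neutrophil genes (186 and 232 TPM, against 78.9 and 82.2 TPM), 4 of 10 islet genes were lower (414 and 364 TPM, against 772 and 729.5 TPM), and 0 of 8 endothelial genes passed (limma; edgeR on recovered reads also called 0). Fibroblast and mural genes were at 6297 and 6263 CPM with overexpression, against 5303 and 5893 CPM in WT. By edgeR, 2 of 11 were higher and 1 lower. In Ly6d-high 1 of 11 was higher (646 and 746 TPM, against 534 and 549 TPM, limma). Erythroid genes were at 64.5 and 65.3 CPM with overexpression, against 29.2 and 38.9 CPM in WT (1 of 5 higher, edgeR). T cell genes had 0 of 3 called with overexpression (edgeR). In Ly6d-high, 1 of 2 T cell and 0 of 4 erythroid genes passed (limma). The part of these cells in the results on members was not tested. Acinar and macrophage genes at 0 were few: Prss1 in both overexpression libraries and Ctrc and Ptf1a in replicate 2 of them, Ptf1a in Ly6d-low replicate 1, and up to 2 macrophage genes (of Adgre1, Fcgr1, Marco and Ms4a7) in WT replicate 2 and the Ly6d-low libraries. In bulk RNA, a change in the number of cells of a type and a change in RNA per cell cannot be told apart.

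Solute carriers move ions, nutrients, metabolites and drugs across the plasma membrane and the membranes of organelles. Some exchange one solute for another, some use the sodium or proton gradient, and some let a solute run down its own gradient. Pancreatic ducts are known for bicarbonate and chloride carriers, acinar cells for amino acid uptake, and growing tumour cells for carriers of glucose, lactate, glutamine and cystine. The family number in a symbol was used to sort the members into 14 substrate classes. A member can stand apart from its class: Slc5a6 carries vitamins although its family was placed with the sugars. There were 4 members that are not carriers, the scaffold proteins Slc9a3r1 and Slc9a3r2 and the genes Slc4a1ap and Slc7a6os, named for a carrier gene next to them or bound by their product.

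The promoters of 4 members that were higher in Ly6d-high cells, and stayed so under another scaling of the libraries, are shown because they are among the widest differences here and have a window in the promoter table. Each runs from 250 bases before to 50 bases after a transcription start, 5′ to 3′ on the gene's own strand, as given by RefSeq on GRCm38.p6. Capitals mark a match, on either strand, to any of 4 short motifs: the GC box GGGCGG, the TATA box TATAAA, the E-box CACGTG and the AP-1 type site TGANTCA. The windows lie at chr13:58610828-58611127 (minus strand) for Slc28a3, chr15:97055907-97056206 (minus strand, the farthest upstream of 3 starts) for Slc38a4, chr3:90389889-90390188 (minus strand) for Slc27a3 and chr4:62286179-62286478 (plus strand) for Slc31a2.
Slc28a3: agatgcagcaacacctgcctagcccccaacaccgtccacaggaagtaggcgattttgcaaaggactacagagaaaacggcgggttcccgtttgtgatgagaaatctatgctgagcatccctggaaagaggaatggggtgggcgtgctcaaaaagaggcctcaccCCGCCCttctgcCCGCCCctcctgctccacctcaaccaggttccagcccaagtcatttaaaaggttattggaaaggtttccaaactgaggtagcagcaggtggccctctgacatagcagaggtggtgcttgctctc
Slc38a4: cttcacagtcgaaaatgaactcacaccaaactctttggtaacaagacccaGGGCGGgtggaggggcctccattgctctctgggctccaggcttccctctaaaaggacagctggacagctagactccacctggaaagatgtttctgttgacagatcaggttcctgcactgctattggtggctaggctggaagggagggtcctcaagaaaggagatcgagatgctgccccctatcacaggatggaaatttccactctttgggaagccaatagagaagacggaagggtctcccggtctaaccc
Slc27a3: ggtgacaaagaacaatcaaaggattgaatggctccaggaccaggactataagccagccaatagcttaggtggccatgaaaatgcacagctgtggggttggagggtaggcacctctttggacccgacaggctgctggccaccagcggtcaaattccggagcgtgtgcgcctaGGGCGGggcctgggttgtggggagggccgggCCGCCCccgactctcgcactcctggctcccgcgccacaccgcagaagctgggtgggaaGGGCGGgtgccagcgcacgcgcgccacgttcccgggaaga
Slc31a2: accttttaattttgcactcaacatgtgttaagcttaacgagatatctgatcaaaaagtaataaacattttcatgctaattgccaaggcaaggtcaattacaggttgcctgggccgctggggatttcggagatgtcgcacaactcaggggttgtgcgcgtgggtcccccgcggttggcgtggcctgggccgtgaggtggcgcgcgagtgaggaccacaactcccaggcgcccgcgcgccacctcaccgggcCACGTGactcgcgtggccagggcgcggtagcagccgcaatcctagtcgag
The Slc28a3 window held 2 GC boxes, the Slc27a3 window 3 and the Slc38a4 window 1, while the Slc31a2 window held an E-box and no other match. The Slc31a2 window lies inside the gene as the tables draw it, since their gene model begins farther upstream. RefSeq promoters were matched to 132 of the 181 members with 180 windows in all. GC boxes were in 73.3% of these windows, against 64.0% of 11204 windows of protein-coding genes at the same count floor and 35.7% of all 32851 windows. E-boxes were in 14.4%, 10.1% and 7.2% of the same sets, TATA boxes in 6.1%, 7.1% and 13.6%, and AP-1 type sites in 3.9%, 5.3% and 7.8%. Among 9 windows of members higher in Ly6d-high cells, 6 held a GC box, 1 a TATA box, 1 an E-box and 0 an AP-1 type site. A match is a run of letters, not a known binding site.

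The members took up 1.13% and 1.11% of all counts with overexpression, against 1.09% and 1.08% in WT. In the other table they made up 0.703% and 0.849% of TPM in Ly6d-high, against 0.636% and 0.666% in Ly6d-low. Levels between genes are compared as CPM per kilobase of the gene model. The highest 12 members held 37% of the members' summed CPM per kilobase with overexpression and 37.3% in WT, and 7 of them were mitochondrial carriers. The scaffold gene Slc9a3r1, which links sodium-proton exchangers to the cytoskeleton, was at 154 and 152 CPM per kilobase with overexpression, against 156 and 156 in WT. The ADP/ATP exchanger Slc25a4 followed at 138 and 156 with overexpression, against 141 and 126 in WT, and its relative Slc25a5 at 126 and 110.4, against 137 and 124. Neighbours in this order overlapped: the ranges of Slc9a3r1 and Slc25a4 met in the overexpression libraries, and those of Slc25a4 and Slc25a5 met in WT. Below a gap came Slc39a1, a plasma membrane zinc importer, at 90.5 and 88.1 CPM per kilobase with overexpression, against 83.4 and 88.1 in WT.

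Slc25a24, an ATP-magnesium/phosphate carrier regulated by calcium, was at 82.3 and 86.0 CPM per kilobase with overexpression, against 72.2 and 71.5 in WT. The lactate and pyruvate carrier Slc16a1 was at 78.2 and 77.7 with overexpression, against 71.3 and 74.6 in WT. For both genes the groups did not overlap, yet neither passed the test described next (adjusted p = 0.104 and 0.614, edgeR quasi-likelihood). The phosphate carrier Slc25a3, the amino acid exchanger subunit Slc3a2, the glutathione carrier Slc25a39, the citrate carrier Slc25a1, the glutamine carrier Slc38a2 and the mitochondrial iron importer Slc25a28 completed the 12, between 39.8 and 67.8 CPM per kilobase over all 4 libraries. At the other end of the members was the glutamine carrier Slc38a1, at 0.209 and 0.377 CPM per kilobase with overexpression, against 0.458 and 0.285 in WT.

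**Figure D1:**
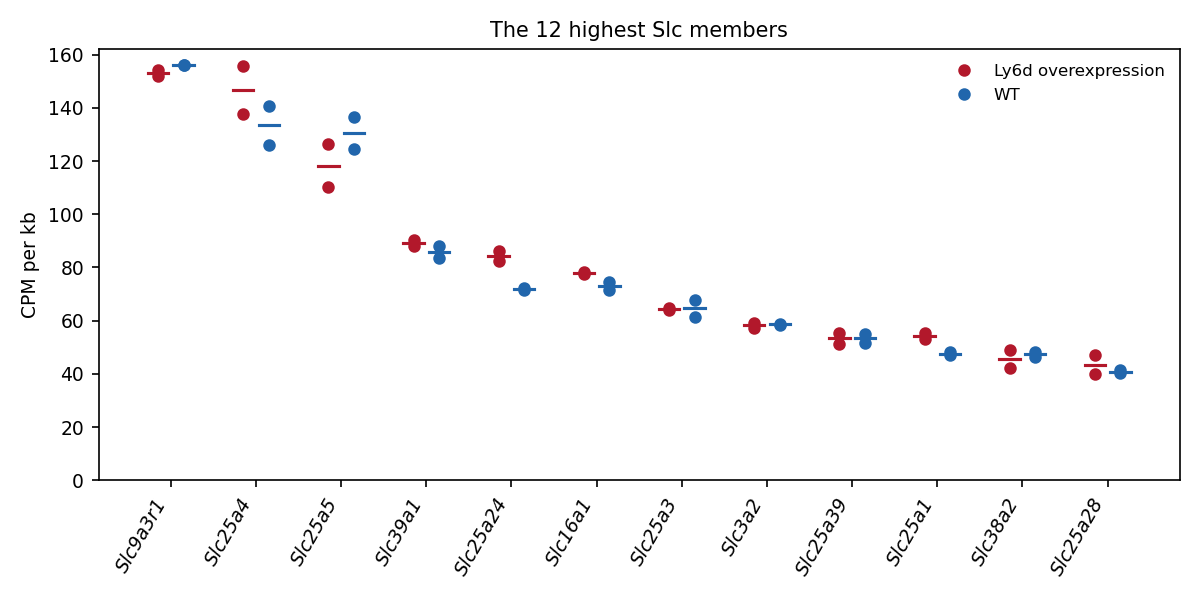
Level of the 12 highest members in CPM per kilobase of gene model (vertical axis, from 0), in the 2 Ly6d overexpression libraries and the 2 WT libraries. Points are libraries and bars are means. Slc9a3r1, Slc25a4 and Slc25a5 lie above 110 in all 4 libraries, and the other 9 lie at 90.5 or below.

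Overexpression was compared with WT to ask what extra Ly6d did to the transcriptome. Of the 181 members, 4 were higher and 2 lower at a Benjamini-Hochberg adjusted p under 0.05 over all 15771 genes tested (edgeR quasi-likelihood test). The iron exporter Slc40a1, the choline carrier Slc44a1, the sulphate carrier Slc26a2 and the phosphate carrier Slc20a2 rose, and the nucleoside carrier Slc28a3 and the anion exchanger Slc4a3 fell. The 6 calls are 3.31% of the members, beside 4.16% of all genes tested (2.32% higher and 1.84% lower) and 3.56% of 11080 protein-coding genes at the same floor. The members' median log2 fold change was 0.03 and that of all genes 0.00. At an unadjusted p under 0.05 there were 30 members. Both overexpression libraries were above both WT libraries for 59 members, or 32.6%, beside 26.3% of all genes, and below them for 39, or 21.5%, beside 21.7%. Because the same 4 libraries set the floor, these counts are given as a description of the members.

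Slc28a3 (ENSMUSG00000021553, GRCm38 chr13:58545399-58610877, minus strand) encodes a sodium-coupled carrier of purine and pyrimidine nucleosides. It was at 4.70 and 4.06 CPM with overexpression, from 86 and 73 counts, against 17.6 and 17.2 CPM in WT, from 318 and 266 counts. It fell by 2.01 ± 0.21 on the log2 scale (SE, n = 2 each; edgeR adjusted p = 0.000193), the largest change among the members. The groups stood far apart and the libraries within each lay close together. Of 28 tested acinar genes, 28 were lower in the same libraries, and the part of acinar RNA in the Slc28a3 result was not tested. The gene shares 3.0% of its exon bases with a pseudogene, Gm3131.

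Slc40a1 (ENSMUSG00000025993, GRCm38 chr1:45908068-45926523, minus strand) encodes ferroportin, the only known exporter of iron from cells, which macrophages use to release iron from old red cells. It was at 132 and 146 CPM with overexpression, against 100.2 and 97.4 CPM in WT (log2 fold change 0.48 ± 0.08 SE, n = 2 each; edgeR adjusted p = 0.00553). The lowest overexpression library was above the highest WT library. In the same libraries 6 of 13 tested macrophage genes were higher, among them C1qa at 22 and 22.3 CPM with overexpression against 4.69 and 5.11 CPM in WT. Their part in the Slc40a1 result was not tested.

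Slc44a1 (ENSMUSG00000028412, GRCm38 chr4:53440413-53622478, plus strand) carries choline, from which membrane phosphatidylcholine is made. It was at 194 and 187 CPM with overexpression, against 143 and 142 CPM in WT (log2 fold change 0.40 ± 0.07 SE, n = 2 each; edgeR adjusted p = 0.00614). Slc26a2, a sulphate carrier that feeds the sulphation of matrix sugars, was at 228 and 224 CPM with overexpression, against 180.4 and 187 CPM in WT (0.28 ± 0.07; edgeR adjusted p = 0.0368). Slc20a2, a sodium-coupled phosphate importer, was at 161 and 147 CPM with overexpression, against 123 and 124 CPM in WT (0.30 ± 0.07; edgeR adjusted p = 0.0450). For these 3 genes too the groups did not overlap. Slc20a1, the other phosphate importer among the members, was at 155 and 125 CPM with overexpression, against 167 and 173 CPM in WT, and did not pass (log2 fold change -0.30 ± 0.09; edgeR adjusted p = 0.109).

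Slc4a3, a chloride-bicarbonate exchanger, was at 27.9 and 26.1 CPM with overexpression, against 47.8 and 35.1 CPM in WT, and fell by 0.64 ± 0.15 on the log2 scale (SE, n = 2 each; edgeR adjusted p = 0.0368). The WT libraries differed from each other more than the overexpression libraries did, and without WT replicate 1 the adjusted p was 0.401. Slc26a2 lost its call without overexpression replicate 1 (edgeR adjusted p = 0.0565) or WT replicate 1 (0.186), and Slc20a2 without overexpression replicate 1 (0.108), WT replicate 1 (0.168) or WT replicate 2 (0.0801). Slc28a3, Slc40a1 and Slc44a1 passed with each of the 4 libraries left out in turn.

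**Figure D2:**
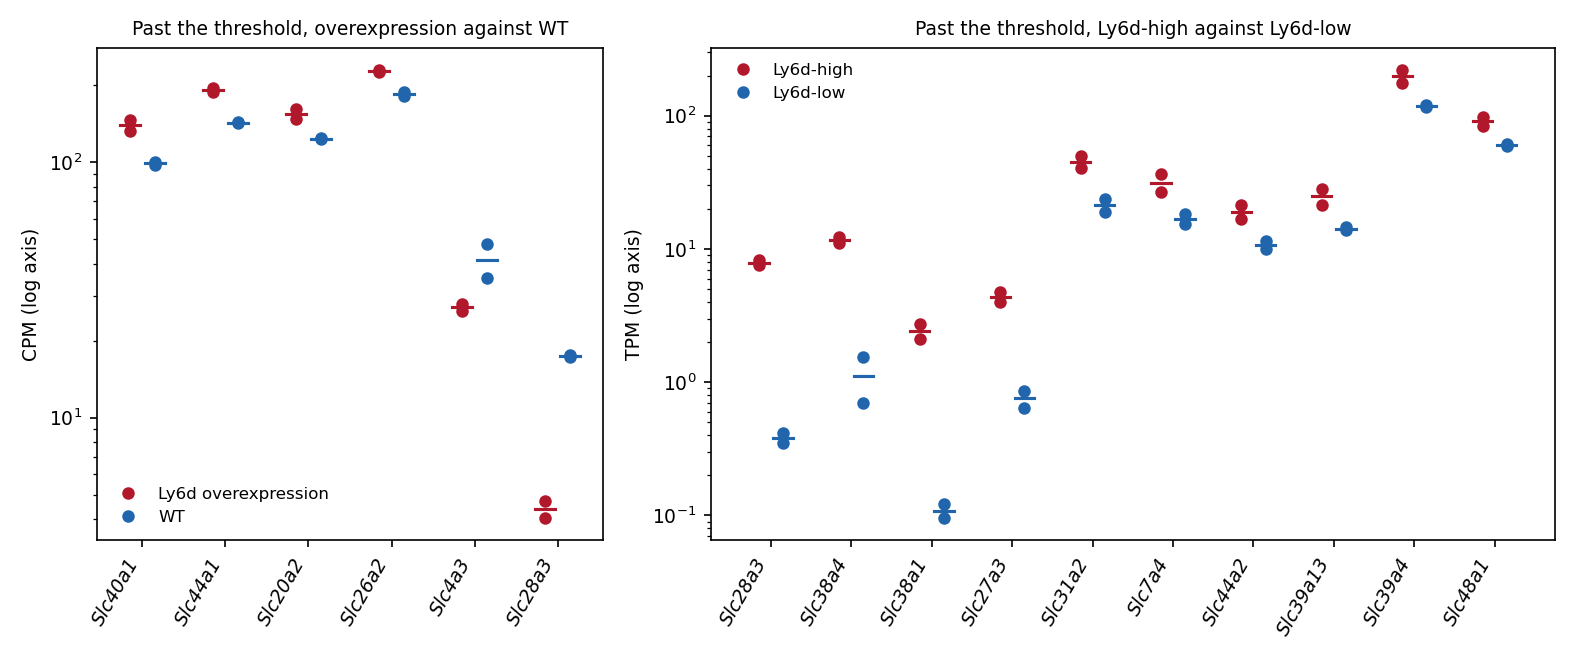
Members past an adjusted p of 0.05. Left, CPM (log axis) in the 2 overexpression and 2 WT libraries, from edgeR's quasi-likelihood test; right, TPM (log axis) in sorted cells with high Ly6d and with low Ly6d (2 libraries each), from limma. Points are libraries and bars are means, and 1 member of the right panel is not shown. In the left panel Slc28a3 has the widest gap, and in the right panel Slc28a3, Slc38a4 and Slc38a1 do.

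By substrate class, 0 of 34 mitochondrial carriers, 0 of 25 amino acid members, 0 of 21 nucleotide sugar and acetyl-CoA members, 0 of 17 zinc members, 0 of 15 organic anion and cation members and 0 of 12 sugar members passed with overexpression (edgeR). DESeq2 also called 0 in each of these 6 classes, while an unadjusted p under 0.05 was reached by 4, 4, 4, 1, 0 and 3 of their members, in the order given. The calls were spread over 5 classes: 2 of 22 members for bicarbonate, chloride and sodium (Slc26a2 and Slc4a3), 1 of 10 for vitamins and nucleosides, 1 of 8 for iron, copper, haem and magnesium, 1 of 7 for fatty acids and choline, and 1 of 2 for phosphate. Class medians of the log2 fold change lay between -0.06 and 0.11 in every class with 2 or more members. The 34 mitochondrial carriers had a median of 0.04, and together they held 812 and 819.8 CPM per kilobase with overexpression, against 807 and 765 in WT. The next classes by summed level were bicarbonate, chloride and sodium, and then amino acids. The former held 349 and 345 with overexpression against 348 and 354 in WT, and the latter 333 and 336 against 334 and 328. In both classes the groups overlapped. The former sum includes scaffold genes, so its rank is not one of carriers alone. Of these genes Slc9a3r1 was at 154 and 152 with overexpression, against 156 and 156 in WT. Outside the classes named, Slc15a4, a lysosomal peptide and histidine carrier, had a log2 fold change of -0.31 and Slc8b1, a mitochondrial sodium-calcium exchanger, one of 0.28, and neither passed.

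The top member of each class was not among the 6 calls. The sugar efflux carrier Slc50a1 was at 44.7 and 47.6 CPM per kilobase with overexpression, against 39.8 and 33.9 in WT. The haem carrier Slc48a1 was at 32 and 29.6, against 25.6 and 25, the organic cation carrier relative Slc22a18 at 21.1 and 24.6, against 19.2 and 18.5, and the choline-like carrier Slc44a4 at 29.4 and 31.1, against 26.6 and 28.9. These 4 had groups that did not overlap without passing the test (edgeR adjusted p from 0.134 to 0.601). The nucleoside carrier Slc29a1, which runs down the gradient, was at 27.9 and 32.1 with overexpression, against 28.5 and 30.1 in WT. Slc35e4, an orphan relative of the nucleotide sugar carriers, was at 32.1 and 33.8, against 32.1 and 32.5. For these last 2 the groups overlapped.

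Ly6d-high cells were compared with Ly6d-low cells to ask what marks the cells that carry the protein. Of the 181 members, 176 passed the filter of 1 TPM in at least 2 of the 4 libraries. Of these, 11 were higher in Ly6d-high cells and 0 lower at an adjusted p under 0.05 (limma-trend on log2(TPM + 1), adjusted over 14625 genes). They include 3 amino acid carriers, 2 zinc carriers, a copper and a haem carrier, a choline-like carrier, a fatty acid transport protein and the nucleoside carrier Slc28a3. The 11 calls are 6.25% of the members tested, beside 9.81% of all genes tested (8.64% higher and 1.17% lower) and 7.02% of 10696 protein-coding genes at the count floor. At an unadjusted p under 0.05, 55 members were higher and 0 lower, against 25 higher and 15 lower with TMM factors on TPM, a scaling that takes out most of a shift shared by all genes, and 28 higher and 17 lower with edgeR on reads recovered from TPM. Of the 11, Slc28a3, Slc38a1 and Slc27a3 were under 1 TPM in both Ly6d-low libraries. They met the filter only through the group where they were high, so the count of 11 is a description. Of the 172 tested members that were not so placed, 8 were called. The members not tested were Slc7a8, Slc38a6, Slc9a5, Slc16a10 and Slc2a9.

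The median difference in log2(TPM + 1) was 0.30 over the members and 0.25 over all genes, so the values of single genes are to be read against that shift. Both Ly6d-high libraries were above both Ly6d-low libraries for 111 of 176 members, or 63.1%, beside 54.4% of all genes, and below them for 5, beside 10.4%. With TMM factors on TPM the median of all genes was 0.01 and that of the members 0.05. Under that scaling 6 members were higher, among them Slc28a3, Slc38a4, Slc38a1, Slc27a3 and Slc31a2, and 2 lower, Slc26a2 and Slc35a3. These 8 are 4.55% of the members, beside 6.57% of all genes and 4.33% of protein-coding genes at the floor. With edgeR on recovered reads, 12 members were higher and 5 lower of 181 tested, or 9.39%, beside 11.9% of all genes and 10.1% at the floor. With DESeq2 on the same reads 10 were higher and 5 lower. The 5 lower by edgeR were Slc35a3, a UDP-N-acetylglucosamine carrier of the Golgi, Slc7a6, Slc26a2, the peroxisomal carrier Slc25a17 and Slc30a9.

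Slc28a3 was at 7.54 and 8.24 TPM in Ly6d-high cells, from 478 and 433 reads, against 0.419 and 0.348 TPM in Ly6d-low cells, from 20 and 21 reads. The difference in log2(TPM + 1) was 2.68 ± 0.20 (SE, n = 2 each; limma adjusted p = 0.000322). On recovered reads the log2 fold change was 4.08 (edgeR adjusted p = 5.06e-05), since the added 1 TPM shrinks differences of genes at low levels. Slc28a3 met the TPM filter only through Ly6d-high, and with every gene above 0 TPM in any library tested, the limma adjusted p was 0.0158. The groups were separated by more than the whole level of the Ly6d-low libraries. In the same libraries 20 of 28 tested acinar genes were higher, among them Cpa1 at 702 and 820.3 TPM in Ly6d-high against 253 and 251 TPM in Ly6d-low. Their part in the Slc28a3 result was not tested.

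A pair of sodium-coupled carriers of neutral amino acids on chromosome 15 followed. Slc38a4 (ENSMUSG00000022464, GRCm38 chr15:96994820-97055956, minus strand), known for its high level in liver, was at 11.2 and 12.2 TPM in Ly6d-high cells, against 0.699 and 1.54 TPM in Ly6d-low cells. The difference was 2.61 ± 0.24 (SE, n = 2 each; limma adjusted p = 0.000844). Slc38a1 (ENSMUSG00000023169, GRCm38 chr15:96571418-96642913, minus strand), a glutamine importer, was at 2.11 and 2.73 TPM in Ly6d-high, against 0.0960 and 0.121 TPM in Ly6d-low (1.62 ± 0.24; limma adjusted p = 0.00690, and 0.0410 with every gene tested). It met the TPM filter only through Ly6d-high. On recovered reads, where no 1 TPM is added, the log2 fold change was 4.15 for Slc38a1, above the 4.08 of Slc28a3, and 3.05 for Slc38a4 (edgeR adjusted p = 8.3e-05 for Slc38a1 and 0.000811 for Slc38a4). The Ly6d-low values rest on 10 and 16 recovered reads for Slc38a1 and on 18 and 50 for Slc38a4. Slc38a2, the member of this family with the highest level, was at 49.1 and 64.6 TPM in Ly6d-high, against 46.3 and 49.2 TPM in Ly6d-low, where the groups overlapped. The third called amino acid family member was Slc7a4, a relative of the cationic amino acid carriers, at 26.6 and 36.2 TPM in Ly6d-high against 15.5 and 18.2 TPM in Ly6d-low (0.85 ± 0.19; limma adjusted p = 0.0388).

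Slc27a3 (ENSMUSG00000027932, GRCm38 chr3:90385239-90389938, minus strand), an acyl-CoA synthetase of the fatty acid transport protein family, was at 3.98 and 4.74 TPM in Ly6d-high cells, against 0.644 and 0.866 TPM in Ly6d-low cells (1.61 ± 0.22 SE, n = 2 each; limma adjusted p = 0.00460). It met the TPM filter only through Ly6d-high and did not pass with every gene tested (limma adjusted p = 0.0532). It did pass with edgeR on recovered reads (adjusted p = 0.00617). Both Ly6d-high libraries lay above both Ly6d-low libraries, and the values rest on 82 and 81 reads in Ly6d-high against 10 and 17 in Ly6d-low. Slc27a1 and Slc27a4 of the same family had differences of 0.87 and 0.60 and did not pass.

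Metal and haem carriers made up 4 of the calls. Slc31a2 (ENSMUSG00000066152, GRCm38 chr4:62262562-62298411, plus strand), a low-affinity copper transporter of endosomes and lysosomes, was at 40.4 and 50.1 TPM in Ly6d-high cells, against 19 and 23.9 TPM in Ly6d-low cells (1.04 ± 0.18 SE, n = 2 each; limma adjusted p = 0.0146). Its relative Slc31a1, the main copper importer, had a difference of 0.39 and did not pass. The zinc importer Slc39a4, known for its role in zinc uptake from the diet, was at 177 and 219.6 TPM in Ly6d-high, against 116 and 120.0 TPM in Ly6d-low (0.73 ± 0.14; limma adjusted p = 0.0215). Slc39a13, a zinc carrier of the Golgi and vesicles, was at 21.4 and 28.1 TPM, against 14.6 and 13.8 TPM (0.75 ± 0.18; limma adjusted p = 0.0455), and the haem carrier Slc48a1 at 83.7 and 98.3 TPM, against 58.9 and 61.1 TPM (0.59 ± 0.14; limma adjusted p = 0.0450). The choline-like carrier Slc44a2 was at 16.7 and 21.4 TPM, against 10.1 and 11.5 TPM (0.76 ± 0.18; limma adjusted p = 0.0462). In all 5 the groups did not overlap, and in TPM the Ly6d-high libraries differed from each other by more than the Ly6d-low libraries did. On the log2(TPM + 1) scale of the test this did not hold for Slc31a2.

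The 5 calls with a difference under 1 depended on the scaling. With TMM factors on TPM none of the 5 passed: limma adjusted p values were 0.0544 for Slc39a4, 0.0719 for Slc7a4, 0.0726 for Slc44a2, 0.0807 for Slc39a13 and 0.0966 for Slc48a1. With edgeR on recovered reads 4 of them passed, Slc39a4 (adjusted p = 0.0256), Slc44a2 (0.0290), Slc7a4 (0.0297) and Slc39a13 (0.0410), and Slc48a1 did not (0.0856). DESeq2 on the same reads called Slc39a4, Slc7a4 and Slc44a2. Each of these 5 also lost its call without Ly6d-low replicate 1 (limma adjusted p from 0.204 to 0.527) and without Ly6d-low replicate 2 (0.0928 to 0.355). Slc31a2 lost its call without Ly6d-low replicate 1 (limma adjusted p = 0.144). Slc38a4 passed with each library left out in turn. Slc28a3, Slc27a3 and Slc38a1 passed without either Ly6d-low library and fell under the TPM filter without a Ly6d-high library. Slc7a4 shares 13.3% of its exon bases with P2rx6 on the other strand, Slc39a13 4.4% with Psmc3 and Slc48a1 1.1% with Hdac7, and no source used here says if counting took account of strand.

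By substrate class, 0 of 34 mitochondrial carriers passed the limma test, with a median difference of 0.19, under the 0.25 of all genes. Also 0 passed among 21 tested members for bicarbonate, chloride and sodium (median 0.28), 21 for nucleotide sugars and acetyl-CoA (0.30), 15 for organic anions and cations (0.32) and 11 for sugars (0.46). At an unadjusted p under 0.05 these 5 classes had 5, 6, 7, 2 and 5 members higher and 0 lower. With TMM factors on TPM the same count was 1, 1, 1, 1 and 2 higher and 4, 1, 2, 1 and 1 lower, and with edgeR on recovered reads 2, 1, 1, 1 and 3 higher and 4, 2, 2, 1 and 2 lower. On recovered reads, edgeR called 0 of them higher, and 1 lower in each of the first 3 classes. In the first class this was Slc25a17, which is peroxisomal although its family was placed with the mitochondrial carriers. Calls were 3 of 23 among amino acid members (median 0.27), 2 of 17 among zinc members (0.35) and 2 of 8 among those for iron, copper, haem and magnesium (0.44). They were 2 of 7 among those for fatty acids and choline (0.60) and 1 of 10 among those for vitamins and nucleosides (0.52). Among these calls, Slc38a1, Slc27a3 and Slc28a3 met the TPM filter only through Ly6d-high. The members of a class spread more widely than the class medians did: in the class of vitamins and nucleosides, differences ran from -0.20 for the thiamine carrier Slc19a2 to the 2.68 of Slc28a3. Class sums of TPM mix genes of very different level and were not tested. Of the 11 higher members, 4 lie on chromosome 15 (Slc38a1, Slc38a4, Slc39a4 and Slc48a1), which holds 10 of the 181 members and also Ly6d. Slc39a4 and Slc48a1 did not pass with TMM factors on TPM. The share of all chromosome 15 genes called is not given here, and no test of position was made.

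**Figure D3:**
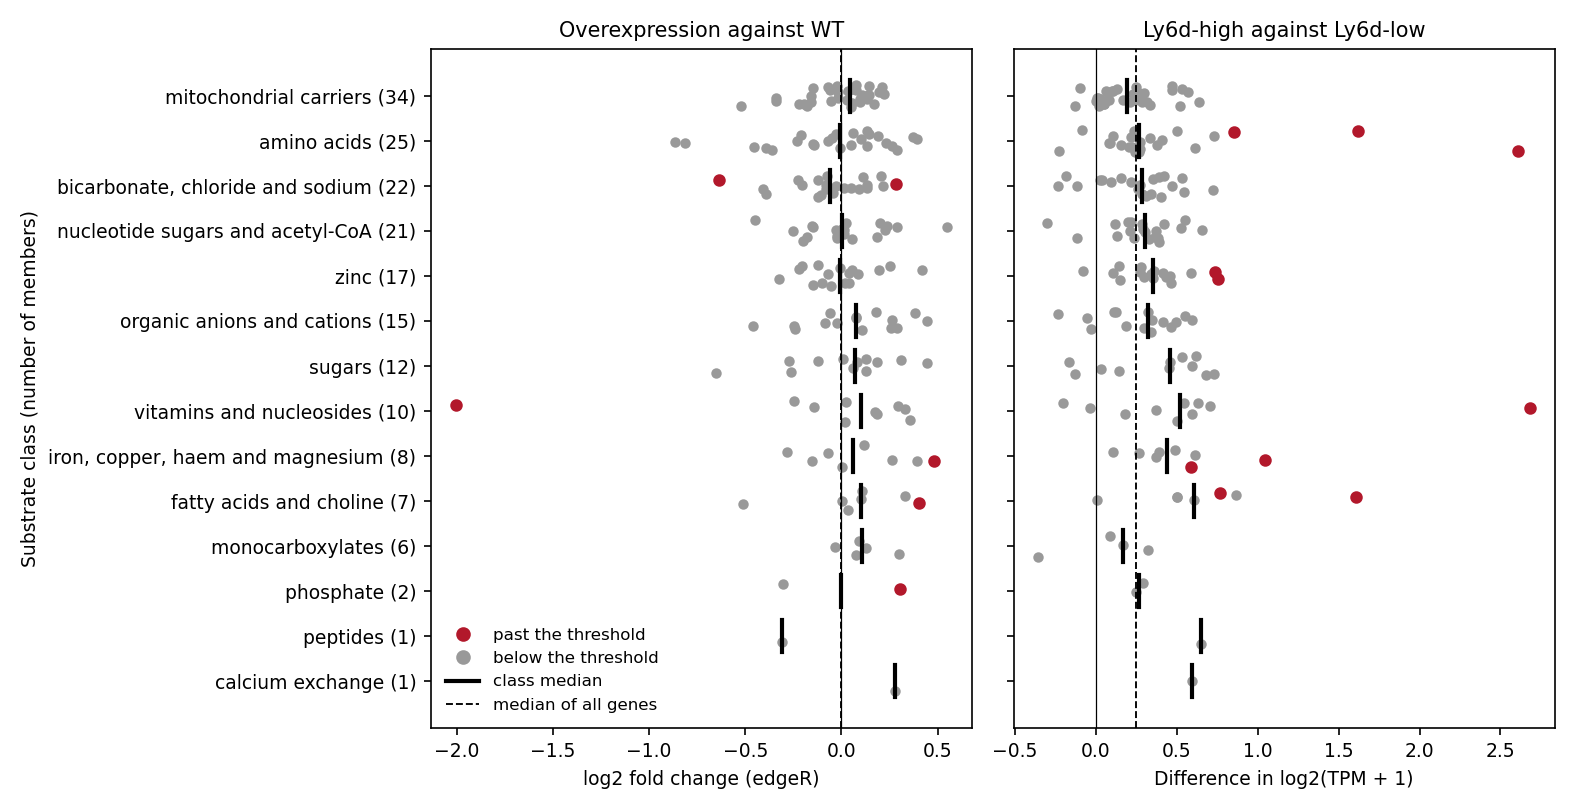
Differences of the members by substrate class, as the log2 fold change of overexpression over WT (left) and the difference in log2(TPM + 1) of Ly6d-high minus Ly6d-low (right). Each point is a member, with 1 not shown, and bars are class medians over all members. Class medians stay between -0.06 and 0.11 with overexpression in classes of 2 or more members, and Slc28a3 lies farthest from 0 in both panels.

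Set side by side, the comparisons share 1 called member. Slc28a3 was lower with overexpression than in WT and higher in Ly6d-high than in Ly6d-low cells. Acinar genes went the same ways. Of 28 tested, 28 were lower with overexpression (edgeR), and of 28 tested, 20 were higher and 0 lower in Ly6d-high (limma). Their part in the Slc28a3 reversal was not tested. With TMM factors on TPM, Slc26a2 passed in both too, higher with overexpression and, at 17.7 and 21 TPM in Ly6d-high against 22.4 and 23.3 TPM in Ly6d-low, lower in Ly6d-high (-0.50 ± 0.09 SE, n = 2 each; limma adjusted p = 0.0474). The other members higher in Ly6d-high cells did not pass with overexpression. Slc38a4 was at 5.96 and 9.72 CPM with overexpression, against 13.8 and 13.4 CPM in WT (log2 fold change -0.81 ± 0.25 SE, n = 2 each; edgeR adjusted p = 0.104). Its groups did not overlap. Slc38a1 was at 3.61 and 6.50 CPM with overexpression, against 7.90 and 4.92 CPM in WT, where the groups overlapped. Of the members called with overexpression, Slc40a1 was at 26.1 and 35.7 TPM in Ly6d-high, against 27 and 29.8 TPM in Ly6d-low, which overlapped, and Slc44a1 at 32.1 and 46.4 TPM, against 25.6 and 28.4 TPM (0.50 ± 0.20; limma adjusted p = 0.145).

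Across the 176 members tested in both, Pearson's r between the log2 values of the comparisons was -0.44, and -0.25 without Slc28a3, and Spearman's rho was -0.13. These describe genes, which are not independent replicates, and carry no p. Since one table holds counts and the other TPM, each scaled on its own, the difference between the comparisons was not tested.

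**Figure D4:**
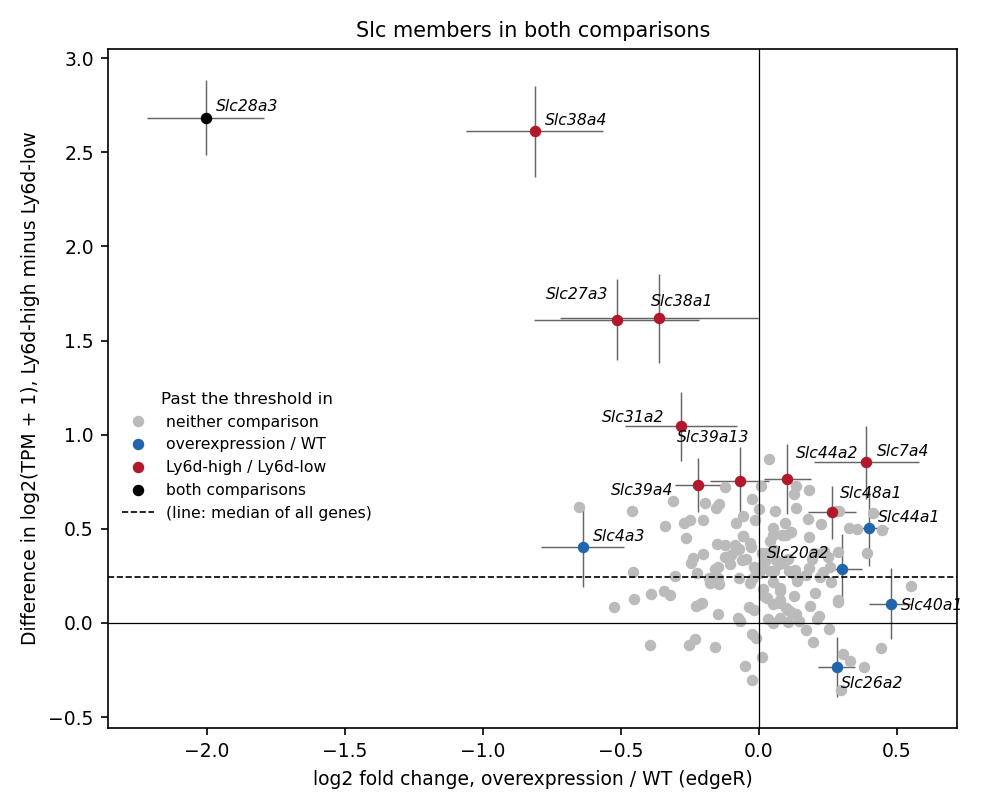
Members in both comparisons: log2 fold change of overexpression over WT (horizontal axis, edgeR) against the difference in log2(TPM + 1), Ly6d-high minus Ly6d-low (vertical axis). Points are the members tested in both except 1, error bars are SE for members past the threshold, and the dashed line is the median of all genes on the vertical axis, 0.25. Slc28a3 sits alone at the upper left, at -2.01 and 2.68.

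A list of 60 companion genes holds pumps, channels, metal stores, carrier partners and the enzymes and sensors that handle what carriers bring in. With overexpression, 3 of 59 tested were higher and 2 lower (edgeR), beside 2.32% of all genes tested higher and 1.84% lower. The drug efflux pump Abcb1a was at 340.3 and 338 CPM with overexpression, against 259 and 251 CPM in WT (log2 fold change 0.39 ± 0.06 SE, n = 2 each; edgeR adjusted p = 0.00444), and the organic anion pump Abcc3 at 253 and 254 CPM, against 204 and 212 CPM (0.27 ± 0.07; edgeR adjusted p = 0.0417). The leucine sensor Sesn2 was at 51.4 and 50.2 CPM, against 31.3 and 33.9 CPM (0.62 ± 0.11; edgeR adjusted p = 0.00934). Asparagine synthetase Asns was at 57.2 and 66.7 CPM, against 87.4 and 93.5 CPM, and fell by 0.56 ± 0.10 on the log2 scale (edgeR adjusted p = 0.00934). Letm1, a mitochondrial inner membrane protein of cation exchange, was at 35.3 and 37 CPM, against 48.7 and 48 CPM, and fell by 0.44 ± 0.11 (edgeR adjusted p = 0.0451). The groups did not overlap in any of the 5. Without WT replicate 1, Abcc3 (edgeR adjusted p = 0.210), Letm1 (0.185) and Sesn2 (0.0505) lost their calls. Abcc3 also lost its call without either overexpression library (0.0522 and 0.0733), and Letm1 without WT replicate 2 (0.212).

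In the sorted cells, 3 of 60 companion genes were higher in Ly6d-high and 4 lower (limma), beside 9.81% of all genes. With edgeR on recovered reads the counts were 4 higher and 10 lower, beside 11.9% of all genes. With DESeq2 on those reads they were 2 higher and 9 lower. Lactate dehydrogenase B, Ldhb, was at 14.5 and 14.1 TPM in Ly6d-high, against 1.90 and 1.42 TPM in Ly6d-low (2.53 ± 0.19 SE, n = 2 each; limma adjusted p = 0.000320), while lactate dehydrogenase A, Ldha, was at 2590.0 and 2564 TPM, against 3830.4 and 3814 TPM, and fell by 0.57 ± 0.08 (limma adjusted p = 0.00466). Aqp5, a water channel of secretory epithelia, was at 50.1 and 56.8 TPM, against 26.6 and 25.8 TPM (1.0 ± 0.15; limma adjusted p = 0.00660), while the water channel Aqp1 was at 16.6 and 16.6 TPM, against 27.1 and 30.9 TPM (-0.77 ± 0.15; limma adjusted p = 0.0249). Carbonic anhydrase Car9 was at 96.1 and 122 TPM, against 63.6 and 67 TPM (0.72 ± 0.15; limma adjusted p = 0.0317). The ferritin light chain Ftl1 was at 7484 and 6788 TPM, against 11296 and 10672 TPM (-0.62 ± 0.08; limma adjusted p = 0.00358). Bsg, the partner that brings Slc16a1 to the cell surface, was at 2731 and 2579.8 TPM, against 3484 and 3362 TPM (-0.37 ± 0.08; limma adjusted p = 0.0351), while Slc16a1 itself was at 183 and 243 TPM, against 182 and 192 TPM, and overlapped between the groups. With TMM factors on TPM, Ldhb, Aqp5, Ldha and Aqp1 kept their calls, and Car9 (limma adjusted p = 0.0635), Ftl1 (0.0636) and Bsg (0.0842) did not. Ldhb and Ftl1 passed with each library left out in turn. Aqp5, Ldha, Aqp1, Car9 and Bsg lost their calls without Ly6d-low replicate 1 (limma adjusted p from 0.0517 to 0.559) and without Ly6d-low replicate 2 (0.0617 to 0.376).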

How the data were processed

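Illumina libraries were made from TRIzol-extracted RNA, per the labels' protocols. The submitters' processing notes name fastp, HISAT2, featureCounts and DESeq2, with no version, and mm9. Gene coordinates of the deposited tables are nevertheless those of GRCm38 for 98.3% of the 54495 genes found in the GENCODE annotation of that build. The deposited overexpression table holds raw counts per gene, and the deposited Ly6d-high and Ly6d-low table holds TPM computed by the authors with the gene length that the file lists. The length column of the deposited tables gives bases, of no other unit. A further 2 count columns matched no label and were not used. Columns were assigned by name, the overexpression columns by inference.

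edgeR 4.0.16 (R 4.3.3) tested the counts (filterByExpr, TMM, quasi-likelihood test), with SE taken from the fold change and its F statistic. For TPM, the limma-trend test of limma 3.58.1 was run on log2(TPM + 1), over genes at 1 TPM in at least 2 libraries. Differences on that scale understate the change of low genes. All p were adjusted over all genes tested, with a threshold of 0.05. TPM times length gave whole reads for 100% of 85643 values above 0 (within 0.1 reads), which edgeR and DESeq2 1.42.0 tested as alternatives. CPM were computed from the counts. The scripts were tested on simulated data. Across genes, deviations of same-numbered libraries from their group means had correlations of 0.00 and 0.07. No label pairs these libraries, so the main fits had no replicate block. A correlation across genes does not see a shift shared by all genes. The members' share of TPM was higher in replicate 2 of both sorted groups. The correlations do not settle whether same-numbered libraries came from the same tumour.

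The members, substrate classes and gene lists were chosen with earlier results of these data known. The text names members past the threshold, the 12 of highest level by length-scaled level, the top member of each class, those at the edge of the floor and companion genes past the threshold; other members are named beside a relative and were chosen after their values were seen. No promoter of chromosome 18 was searched. Samples labelled as tissue were not analysed here as such. Of the members higher in Ly6d-high cells, 1 is not reported here by name, though it is in the counts.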

Additional observations from a re-analysis of the deposited data

How the results depend on the processing

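With overexpression, the 6 member calls became 11 with no filter on low counts. Leaving out a library gave 4 to 12 calls, with 12 without overexpression replicate 1 and 11 without overexpression replicate 2. DESeq2 and DESeq2 size factors gave 6 each and the replicate block 4, under which Slc20a2 (adjusted p = 0.0860) and Slc26a2 (0.0828) lost their calls. The 5 companion calls became 9 with no filter and 3 with the replicate block. Abcc3, Letm1 and Sesn2 were not stable when a library was left out, as given above.

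In Ly6d-high against Ly6d-low, the 11 member calls became 4 with no filter, 17 with edgeR on recovered reads and 51 with the replicate block. They ran from 5 to 104 with a library left out: 104 without Ly6d-high replicate 1, 5 without Ly6d-low replicate 1 and 6 without Ly6d-low replicate 2. They were 8 with a pseudocount of 0.1, 8 with TMM factors and 15 with DESeq2 on recovered reads. With no filter, Slc27a3 (adjusted p = 0.0532) and Slc31a2 (0.0785) also lost their calls. The 7 companion calls became 2 with no filter, 14 with edgeR (4 higher, 10 lower) and 11 with DESeq2 (2 higher, 9 lower) on recovered reads and 19 with the replicate block, and ran from 2 to 32 with a library left out. The cause of these moves was not tested. No called member changed its direction under any alternative run. With a library left out, the lone sample of its group is assumed to vary like the other group. No label says whether same-numbered libraries are paired, so the block is given only as a check. With 2 libraries a group, small differences of members at few reads may go undetected. Slc7a8, for example, had 7 and 8 recovered reads in the Ly6d-low libraries.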

Other observations

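The 186 Slc genes under the count floor, described here after their values were seen, included 49 with no counts in the overexpression and WT libraries. Of 32 tested in the sorted cells, 13 were higher in Ly6d-high and 0 lower, beside 9.81% of all genes called (limma). At an unadjusted p under 0.05, 18 were higher and 0 lower. On recovered reads edgeR called 19 higher and 1 lower of 54, beside 11.9% of all genes. The sodium-glucose carrier Slc5a1 was at 11.4 and 15.9 TPM in Ly6d-high, against 0.363 and 0.925 TPM in Ly6d-low (difference 3.16 ± 0.26 in log2(TPM + 1), SE, n = 2 each; limma adjusted p = 0.000487). The organic cation carrier Slc22a2 was at 8.24 and 10.7 TPM, against 0.667 and 0.474 TPM (2.73 ± 0.22; limma adjusted p = 0.000431), and Slc12a8 at 7.49 and 9.20 TPM, against 0.559 and 0.648 TPM (2.54 ± 0.21; limma adjusted p = 0.000487). Of the 13, 12 were under 1 TPM in both Ly6d-low libraries and passed the filter only through Ly6d-high, so the count of 13 supports nothing. The other was Slc46a3, with a limma adjusted p of 0.0487. Slc5a1, Slc22a2 and Slc12a8 are among the 12, so their p values above are a description. With every gene tested, their limma adjusted p was 0.0214, 0.0189 and 0.0193. How many of the edgeR calls rest on Ly6d-high alone in this way was not examined.

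With overexpression, 66 of these genes were tested, and 1 was higher and 2 lower (edgeR), beside 2.32% of all genes higher and 1.84% lower. Slc5a1 was at 2.35 and 3.17 CPM with overexpression, against 9.94 and 11 CPM in WT (log2 fold change -1.94 ± 0.29 SE, n = 2 each; edgeR adjusted p = 0.00297). The zinc importer Slc39a5 was at 1.48 and 2.22 CPM, against 8.78 and 8.29 CPM (-2.22 ± 0.34; edgeR adjusted p = 0.00343). The lysosomal peptide carrier Slc15a3 was at 5.58 and 5.94 CPM, against 2.04 and 1.88 CPM (1.53 ± 0.36; edgeR adjusted p = 0.0388), and lost its call without WT replicate 1 (0.128) or WT replicate 2 (0.171). Acinar sums were lower with overexpression too, and their part in these values was not tested.

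Levels of the same gene differed widely between the tables, which were made separately. Slc39a1 was at 9.16 and 9.26 CPM of recovered reads in Ly6d-low, against 197 and 208 CPM in WT, a log2 ratio of -4.46. The median log2 ratio was -0.61 over the members and -0.40 over 11077 protein-coding genes at the floor. Of the members, 24 were more than 4-fold lower in Ly6d-low and 0 more than 4-fold higher. These ratios set cells sorted for low Ly6d against WT libraries in which Ly6d was expressed. Slc28a3, Slc27a3, Slc38a1 and Slc38a4, called higher in Ly6d-high, had log2 ratios of -3.85, -3.20, -3.10 and -2.85. The ratios for Ly6d-high are not given here, so the sort and the table cannot be told apart. Spearman's rho of that ratio with gene length was -0.52 across members and -0.46 across the protein-coding genes. No test was made, since the tables were normalized separately.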
